A study of Mus musculus with 12 samples.

Results

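The genes described here are Tcl1 and 6 genes of the AKT pathway, namely Akt1, Akt2, Pik3ca, Pik3cb, Pdpk1 and Mtor, in cultured and fetal to postnatal germ cells of the male mouse. They were chosen by symbol, 7 of 31685 genes that all 12 libraries share by Entrez ID. Tcl1 was picked because its level is high in Stag3 knockout cells and at postnatal day 7 in these same libraries, so its values against wild type and at that age are given as a description with no test. The other 6 were picked as partners of the pathway and are tested. All 7 passed the filter on low counts in every fit.

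The libraries were made by SC3-seq, in which amplified cDNA is read at its 3' ends, from 6 groups of 2 libraries. Germline stem cells (GSCs), the cultured form of spermatogonial stem cells, were either wild type (WT) or knocked out for the cohesin subunit gene Stag3, the latter as lines named KO1 and KO2. WT and knockout cells alike carry the background Acrosin-EGFP; beta-Actin-EGFP, so both transgenes are shared. Germ cells of the testis came from fetuses at E16 and E17 (embryonic days 16 and 17) and from pups at P7 (postnatal day 7), all from mice of the genotype Vasa-RFPTg/0. How cells were sorted, how GSCs were grown, how the knockouts were made and whether KO1 and KO2 are single clones is not stated in the sources used here. Nothing in the labels says that replicates came from different cultures or animals, and p-values then cover only the spread between these libraries, which may be technical.

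AKT is a kinase that carries growth factor signals to survival, growth and metabolism. Phosphoinositide 3-kinase (PI3K) makes a membrane lipid that recruits AKT, where PDK1 and the mTOR complex 2 phosphorylate it, and TCL1 binds AKT and raises its activity. Active AKT holds FOXO transcription factors out of the nucleus and relieves the brake on mTOR complex 1, and in spermatogonial stem cells this route carries the signal of the niche factor GDNF. These are statements about proteins, and the data below are RNA levels only.

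Total counts ran from 1938644 to 4596607 per library, and 3 counts, the limit that a count of 0 allows, correspond to 0.748 to 1.73 reads per 1000000 gene counts (RPM). That limit covers counting error only. Stag3 was read at 385 and 420 RPM in WT, 295 and 304 in KO1 and 137 and 152 in KO2, and since the altered part of Stag3 is not given, these 3' reads check no label. All 6 germ cell markers examined (Ddx4, Dazl, Mael, Dnd1, Tdrd1 and Sycp3) were detected in each group. Their sum ran from 2613 to 3731 RPM over the 12 libraries. The P7 tables list another set of gene models than the other tables, so age and gene list cannot be told apart at P7. Counts of added ERCC spike-in RNA made up 0.194% and 0.231% of E17 libraries and 4.69% to 5.85% of P7 libraries, and how much was added is not stated in the sources used here. Fold changes below are relative to the bulk of genes (TMM scaling). With spike-in totals as the scale, the median log2 fold change was 3.02 from E16 to E17 and -4.81 from E17 to P7. Directions in vivo therefore hold only relative to other genes. In these bulk libraries, fewer cells of a type and less RNA per cell cannot be told apart.

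Tcl1 lies on chromosome 12 from 105216753 to 105222737 on the minus strand (GRCm38.p6, Entrez ID 21432), and no other annotated gene overlaps it. Mtor, the kinase of both mTOR complexes, lies on chromosome 4 from 148448582 to 148557685 on the plus strand (Entrez ID 56717). The 250 bases before their RefSeq starts (GRCm38.p6) are shown because Tcl1 and Mtor are the members with the largest rise and the largest fall in knockout GSCs. Capitals mark matches to any of 5 motifs, each searched on both strands, and no marked matches overlap. The GC box was searched as GGGCGG. The ETS core was searched as CGGAAG. The forkhead motif was searched as GTAAACA. The TATA box was searched as TATAAA. The E-box was searched as CACGTG. The Tcl1 stretch is chr12:105222738-105222987 on the minus strand, and the Mtor stretch is chr4:148448332-148448581 on the plus strand.
Tcl1: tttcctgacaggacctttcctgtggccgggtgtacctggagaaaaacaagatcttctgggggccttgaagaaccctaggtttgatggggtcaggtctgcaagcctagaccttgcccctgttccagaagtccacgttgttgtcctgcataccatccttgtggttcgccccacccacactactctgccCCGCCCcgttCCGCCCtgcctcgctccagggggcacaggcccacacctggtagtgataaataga
Mtor: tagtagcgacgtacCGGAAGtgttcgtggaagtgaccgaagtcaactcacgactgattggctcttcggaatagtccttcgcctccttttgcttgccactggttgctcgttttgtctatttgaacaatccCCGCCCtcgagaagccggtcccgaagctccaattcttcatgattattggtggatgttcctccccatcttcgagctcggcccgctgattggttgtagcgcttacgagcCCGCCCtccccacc
Tcl1 held 2 GC boxes and Mtor held 2 GC boxes and 1 ETS core, and the 50 bases after each start added none. No forkhead, TATA box or E-box letters were in either window. Among 32851 RefSeq promoter windows of 300 bases, 35.7% held a GC box, 16.9% an ETS core, 3.65% the forkhead motif, 13.6% a TATA box and 7.15% the E-box. A match is a description of letters and says nothing of binding.

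Tcl1, the AKT co-activator, was read at 21.5 and 20.9 RPM in WT GSCs, from 79 and 84 counts. It reached 89.7 and 90.4 RPM in KO1 and 89.1 and 96.3 in KO2, from 259 to 347 counts. Both knockout lines stood above WT without overlap, with ratios of mean RPM of 4.25 for KO1 and 4.37 for KO2. In vivo Tcl1 was at 18.4 and 8.10 RPM at E16 and at 16.2 and 14.1 at E17. It stood at 109 and 113 RPM at P7, above every other library. The P7 mean was 7.33 times that of E17, 8.39 times that of E16 and 5.24 times that of WT GSCs. Against knockout GSCs the P7 mean was 1.23 times that of KO1 and 1.199 times that of KO2, and the libraries did not overlap. The order of mean RPM from low to high was E16, E17, WT, KO1, KO2 and P7, in which E16 overlapped E17 and KO1 overlapped KO2. With spike-in totals as the scale, the P7 to E17 log2 fold change of Tcl1 was -1.65, above the median gene at -4.81 but opposite in sign to the value relative to other genes (3.03).

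Only differences of Tcl1 other than the rises that served to choose it were tested. The KO1 and KO2 values entered that choice too, which can favour likeness between the lines. Between the knockout lines its log2 fold change, KO1 over KO2, was -0.04 ± 0.14 (SE; adjusted p = 0.961, edgeR quasi-likelihood test with Benjamini-Hochberg adjustment), with a 95% interval from -0.31 to 0.23. No difference in Tcl1 between KO1 and KO2 was thus detected. Stag3 RNA was higher in KO1 than in KO2, and its relation to Tcl1 was not tested. The means of 90.1 and 92.7 RPM were closer than the KO2 replicates (89.1 and 96.3) but further apart than the KO1 replicates (89.7 and 90.4). From E16 to E17 the log2 fold change was -0.08 ± 0.34 (adjusted p = 0.925), with an interval from -0.80 to 0.64. The 2 E16 libraries differed from each other by more than the groups did, and the sign of that value turned with the scaling. The E17 libraries also served as the base of the rise at P7.

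**Figure D1:**
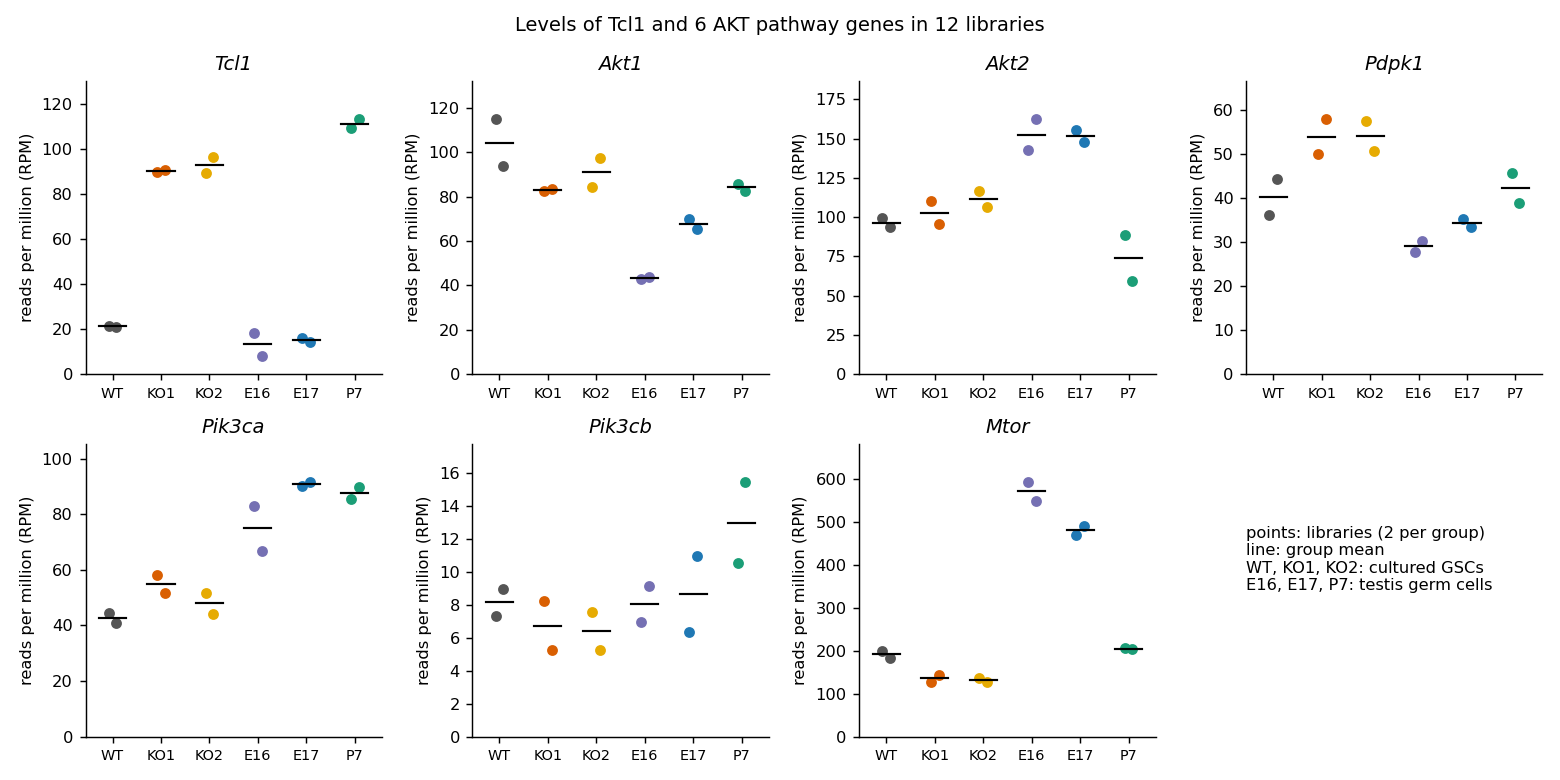
Levels of the 7 genes in RPM on linear axes, 1 point per library and a line at each group mean. Tcl1 lies between 89.1 and 113 RPM in knockout GSCs and at P7 and between 8.10 and 21.5 RPM elsewhere, and Mtor is highest at E16 and E17.

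Other genes of the TCL1 family were at or near 0. Tcl1b1, Tcl1b3 and Tcl1b4 did not exceed 0.704 RPM in any library, Tcl1b5 reached 1.73 RPM in 1 E17 library and Tcl1b2 reached 4.19 RPM in the other. Tcl1b2 was at 0 in both WT libraries. Mtcp1, the family member on the X chromosome, had 0 to 3 counts in each of the GSC, E16 and E17 libraries and 28 and 29 counts at P7. Cmc4, which overlaps it, had 17 to 58 counts in those other libraries and is not a gene of the P7 list. No change of Mtcp1 is therefore drawn, though it is counted among the genes higher at P7 below.

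Of the AKT kinases, Akt1 was lower in the knockout lines by a call that 4 of the 6 libraries could each undo, and in vivo Akt1 and Akt2 had opposite signs from E17 to P7. Akt1 (chromosome 12, 112653821 to 112674884), the widely expressed isoform, was at 115 and 93.7 RPM in WT, 82.7 and 83.4 in KO1 and 84.5 and 97.7 in KO2. WT and KO2 overlapped. For the mean of both lines against WT the log2 fold change was -0.31 ± 0.11 (adjusted p = 0.0312, edgeR quasi-likelihood test, as for all adjusted p-values here). Without WT replicate 1 the value was -0.14 (adjusted p = 0.516), and the call was also lost without KO1 replicate 1 (0.0701), KO1 replicate 2 (0.0636) or KO2 replicate 1 (0.131). It was lost again with DESeq2 (adjusted p = 0.154), with spike-in scaling (0.107), with library totals (0.0799) and with all 12 libraries in 1 fit (0.0921). Akt2 (chromosome 7, 27591552 to 27640826), the isoform best known from insulin signalling, was at 99.1 and 93.9 RPM in WT, 110 and 95.3 in KO1 and 116 and 107 in KO2. Its knockout log2 fold change was 0.10 ± 0.10, with an interval from -0.11 to 0.31 (adjusted p = 0.550).

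In vivo Akt1 was at 42.7 and 44.0 RPM at E16, 69.9 and 65.4 at E17 and 85.8 and 82.5 at P7. The 3 ages did not overlap, and the level was higher at each later age. From E16 to E17 the log2 fold change was 0.30 ± 0.19 (adjusted p = 0.377; 0.64 with library totals, adjusted p = 0.0425), and from E17 to P7 it was 0.47 ± 0.18 (adjusted p = 0.0266). The second call was lost with DESeq2 (adjusted p = 0.116), with library totals (0.124) and on leaving out any 1 E17 or P7 library, and with spike-in scaling the value was -4.22, above the median gene at -4.81. Akt2 was at 143 and 162 RPM at E16, 155 and 148 at E17 and 88.8 and 59.0 at P7. It fell by 0.88 ± 0.19 on the log2 scale from E17 to P7 (adjusted p = 7.19e-04), with P7 replicates that differed by more than those of any other group. Against WT GSCs, fetal cells (the mean of E16 and E17) had less Akt1 (-1.08 ± 0.13, adjusted p = 5.65e-09) and more Akt2 (0.52 ± 0.13, adjusted p = 6.10e-04). The Akt1 direction here turned with spike-in scaling, to 1.56, where the median gene stood at 2.87. At P7 both were lower than in WT GSCs, Akt1 by -0.44 ± 0.15 (adjusted p = 0.0200) and Akt2 by -0.52 ± 0.15 (adjusted p = 0.00884). Without WT replicate 1 neither passed (adjusted p = 0.302 and 0.0704), nor with library totals (0.111 and 0.0529). The Akt1 call was also lost without P7 replicate 1 (0.0703) or P7 replicate 2 (0.0957), and the Akt2 call without P7 replicate 2 (0.282).

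Pdpk1 (chromosome 17, 24073680 to 24155619) encodes PDK1, the kinase that phosphorylates the activation loop of AKT. Its level was 36.2 and 44.4 RPM in WT, 50.02 and 58.0 in KO1 and 57.5 and 50.8 in KO2, and WT did not overlap the knockout lines. The log2 fold change of 0.37 ± 0.14 missed the threshold narrowly (adjusted p = 0.0514). It passed with library totals (adjusted p = 0.0265) and without WT replicate 2 (0.0396) or KO1 replicate 1 (0.0474), and was at 0.220 with DESeq2. In vivo Pdpk1 was at 27.8 and 30.3 RPM at E16, 35.3 and 33.5 at E17 and 45.7 and 38.9 at P7. Neither step of age passed the test (adjusted p = 0.843 and 0.0857), though that from E17 to P7 passed with all 12 libraries in 1 fit (0.0431) and without E16 replicate 1 (0.0267) or E16 replicate 2 (0.0329). Fetal cells had less than WT GSCs (-0.48 ± 0.17, adjusted p = 0.0114), a call lost without WT replicate 2 (0.147), with library totals (0.0659) and with DESeq2 (0.167), and turned to 2.15 with spike-in scaling.

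Neither catalytic PI3K subunit among the members passed the test in the knockout lines. Pik3ca (chromosome 3, 32397065 to 32466112), the p110-alpha subunit, was at 44.4 and 40.9 RPM in WT, 58.0 and 51.7 in KO1 and 51.8 and 44.1 in KO2, a log2 fold change of 0.22 ± 0.14 (adjusted p = 0.287). Kcnmb3 covers the 3' end of Pik3ca, and with no strand setting given its reads cannot be told apart, though Kcnmb3 itself was counted at no more than 6.46 RPM. Pik3ca was at 83.0 and 66.9 RPM at E16, 90.2 and 91.6 at E17 and 85.5 and 89.6 at P7. All 6 in vivo libraries thus stood above all 6 GSC libraries. Against WT GSCs the log2 fold change was 0.81 ± 0.15 in fetal cells (adjusted p = 8.09e-06) and 0.91 ± 0.16 at P7 (adjusted p = 3.25e-05). The P7 value was 0.36 with spike-in scaling (adjusted p = 0.274). Pik3cb (chromosome 9, 99038402 to 99140235), the p110-beta subunit, was read at 5.24 to 15.5 RPM from 11 to 50 counts per library, and none of its comparisons passed the test. Its knockout log2 fold change of -0.35 had an interval from -1.02 to 0.31, so a change of that size was not detectable at this depth.

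Mtor fell in the knockout lines and fell with age. It was at 200.1 and 184 RPM in WT, 129 and 144 in KO1 and 137 and 127 in KO2, with no overlap between WT and either line. The log2 fold change was -0.57 ± 0.09 for the mean of both lines (adjusted p = 2.05e-07), -0.55 ± 0.10 for KO1 alone (4.31e-05), and -0.59 ± 0.10 for KO2 alone (5.19e-06). That for the mean of both lines passed the threshold under each alternative and without any 1 library, between -0.67 and -0.49. In vivo Mtor was at 593 and 550 RPM at E16, 470 and 491 at E17 and 206 and 203 at P7, and the ages did not overlap. From E16 to E17 it fell by 0.58 ± 0.11 (adjusted p = 0.00526), a call lost without E17 replicate 1 (0.142), without E17 replicate 2 (0.0857) or with library totals (0.133). With spike-in scaling the value there was 2.42, below the median gene at 3.02. From E17 to P7 it fell by 1.08 ± 0.11 (adjusted p = 1.27e-06), and each alternative kept that call. Fetal cells had more Mtor than WT GSCs (1.31 ± 0.09, adjusted p = 6.72e-15). At P7 Mtor stood close to WT GSCs, at -0.04 with an interval from -0.25 to 0.18 (adjusted p = 0.849), and at -0.59 with spike-in scaling (adjusted p = 0.0207).

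**Figure D2:**
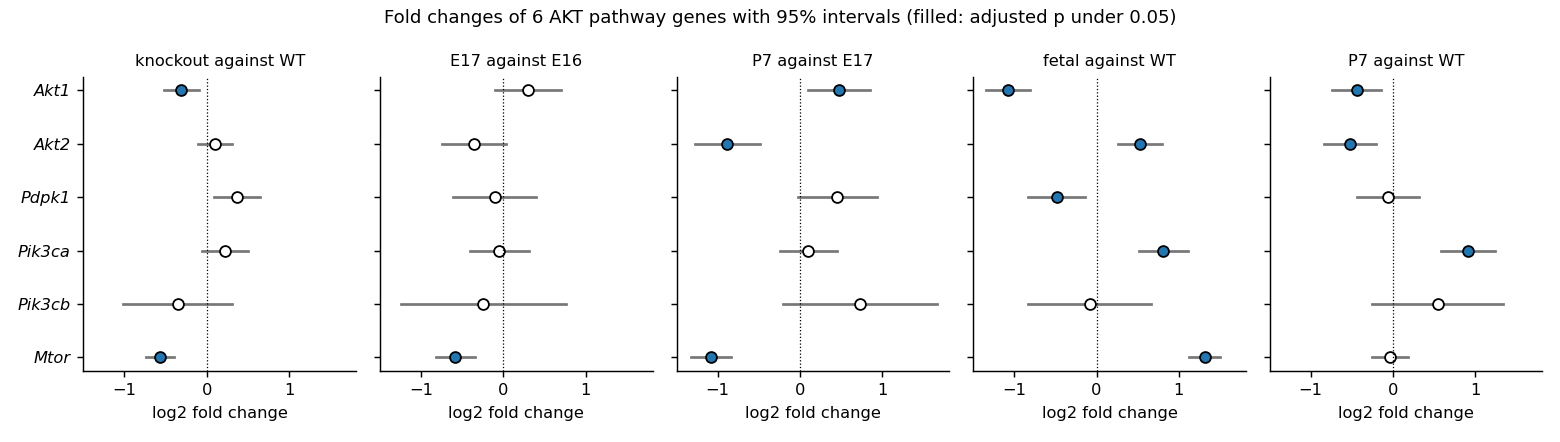
Log2 fold changes of the 6 tested genes in 5 comparisons with 95% intervals of the edgeR fit, filled where the adjusted p is under 0.05. Mtor is lower in knockout GSCs, at E17 and at P7, and higher in fetal cells than in WT GSCs; with spike-in scaling the E17 to E16 value turns positive, and so do those of Akt1 and Pdpk1 in fetal cells.

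Counted over the 6 tested genes, 2 were lower and 0 higher for both knockout lines averaged and set against WT, where 19.2% of 11890 genes tested passed, 8.64% higher and 10.6% lower. In KO1, 2 of 6 were lower (background 13.6%, of which 6.24% higher and 7.40% lower), and in KO2 1 of 6 was lower (15.6%, of which 7.19% higher and 8.45% lower). The Akt1 call in KO1 was lost without WT replicate 1 (adjusted p = 0.403) or either KO1 library (0.168 and 0.154), and Akt1 passed in KO2 without WT replicate 2 (0.0181). No member passed between KO1 and KO2, where 0.833% of genes did, 0.547% higher and 0.286% lower (edgeR), and DESeq2 called none of them either. None of the 7 had an unadjusted p under 0.05 there. From E16 to E17, 1 of 6 was lower (6.60% of all genes, 1.64% higher and 4.96% lower; Akt2 also passed as lower without E16 replicate 1, adjusted p = 0.00685), and from E17 to P7, 1 was higher and 2 lower (67.9%). Against WT GSCs 3 of 6 passed at P7 (31.0%) and 5 of 6 in fetal cells, 3 higher and 2 lower (74.2%, of which 41.9% higher and 32.3% lower). The P7, fetal and knockout comparisons against WT share the WT libraries, and both in vivo steps share the E17 libraries.

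The wider pathway was read from lists of 146 genes in 10 groups. Without Tcl1, 123 of them were tested in GSCs, and 28.5% passed between knockout and WT, 9 higher and 26 lower. Among all 11890 genes tested, 19.2% passed, 8.64% higher and 10.6% lower. The split was 14 higher and 23 lower with library totals and 3 higher and 19 lower with all 12 libraries in 1 fit. Among all genes, 2345 of 11890 and 1421 of 15827 passed in these fits. The median log2 fold change of the 124 tested genes, which include Tcl1, was -0.08, against 0.0021 for all genes tested. The medians of the groups other than the TCL1 family and the FOXO targets lay between -0.24 and 0.06.

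FOXO target genes stood lowest among the groups in knockout GSCs. Of 15 tested, 8 were lower and 0 higher, against 10.6% of all genes lower, and their median was -0.64. The count was 6 in KO1, 7 in KO2 and, for both lines averaged, 5 with DESeq2. Of all genes, 7.40% were lower in KO1 and 8.45% in KO2, and DESeq2 called 1083 of 11890 in either direction. The 7 in KO2 include Bcl2l11, a gene of apoptosis that is not among the 8 and is named after its values were seen. It was at 10.3 and 14.0 RPM in WT, 17.7 and 14.3 in KO1 and 4.86 and 4.44 in KO2, and it differed between the lines (KO1 over KO2 1.78 ± 0.35, adjusted p = 6.77e-04). Fbxo32, a muscle atrophy ubiquitin ligase, was at 41.7 and 36.6 RPM in WT, 14.7 and 12.2 in KO1 and 10.3 and 11.9 in KO2, a log2 fold change of -1.72 ± 0.19 (adjusted p = 3.23e-12). Bnip3, a mitophagy receptor, was at 48.5 and 54.8 RPM in WT and at 21.1 to 25.6 in the knockout libraries (-1.203 ± 0.15, adjusted p = 7.57e-10). Gadd45b, a stress response gene, passed for the mean of both lines (-1.01 ± 0.31, adjusted p = 0.0117) and in KO1, though with KO2 alone it missed (0.134). The other 5, Txnip, Klf4, Gabarapl1, Map1lc3b and Cited2, fell by 0.47 to 0.91 and are named after their values were seen. Of these, Cited2 passed in neither line alone (adjusted p = 0.0588 in KO1 and 0.220 in KO2) and Gabarapl1 missed in KO1 (0.210). Many genes of this list also answer to other factors, so the list name is not a measure of FOXO activity.

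The FOXO genes themselves were split. Foxo3 was at 67.0 and 63.5 RPM in WT and at 31.2 to 45.04 in knockout libraries (log2 fold change -0.80 ± 0.14, adjusted p = 2.90e-06). Foxo1, a regulator of spermatogonial stem cells, was at 205 and 224 RPM in WT and 151 to 178 in knockout libraries (-0.41 ± 0.08, adjusted p = 1.04e-04). Foxo6 rose, from 13.3 and 8.72 RPM in WT to between 18.5 and 25.0 (0.97 ± 0.23, adjusted p = 0.00100). With Chuk, a kinase of the NF-kB route (0.34), these were the 4 of 15 AKT substrates that passed (26.7%, against 19.2% of all genes), and Chuk passed in neither line alone (adjusted p = 0.0527 and 0.125). Among kinases related to AKT, Sgk1 fell by 1.58 ± 0.16 (adjusted p = 1.19e-13) and Sgk3 rose by 0.38 ± 0.11 (adjusted p = 0.00572).

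Around Mtor, 2 of 10 tested genes of the mTOR complexes passed (20%, near the 19.2% of all genes), Mtor itself and the assembly factor Telo2 (-0.47 ± 0.16, adjusted p = 0.0227; 0.115 in KO2 alone). The shared and defining subunits Mlst8 (-0.21), Rptor (-0.20) and Rictor (0.03) did not pass (adjusted p from 0.384 to 0.919). Of 21 inputs from RHEB, amino acids and TSC, 2 were higher and 3 lower (23.8%, against 19.2% of all genes). The lysosomal GTPase gene Rragd fell by 0.95 ± 0.08, from 240 and 252 RPM in WT to between 110 and 148, and the arginine sensor gene Castor1 rose by 1.02 ± 0.22. Of 16 mTORC1 outputs, 2 were higher and 2 lower (25%, against the same 19.2%). Eef2k, the kinase of elongation factor 2, fell by 1.67 ± 0.15, and the translation repressor gene Eif4ebp1 fell by 0.93 ± 0.09, from 206 and 183 RPM to between 97.5 and 114. Ulk2 and Tfeb, genes of autophagy and lysosome control, each rose by 0.64, though Tfeb missed in KO2 alone (adjusted p = 0.324).

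Upstream, 4 of 15 receptors and adaptors passed in knockout GSCs (26.7%, against 19.2% of all genes). Ret, the signalling receptor for GDNF, rose from 103 and 94.4 RPM in WT to between 138 and 166 (0.57 ± 0.10, adjusted p = 1.91e-06), and its co-receptor gene Gfra1 missed the threshold (0.23 ± 0.09, adjusted p = 0.0584). Kit fell by 1.70 ± 0.16, from WT libraries that were themselves apart at 42.2 and 82.0 RPM to between 11.1 and 31.4. The lines differed in Kit, at -1.07 in KO1 and -2.32 in KO2 (KO1 over KO2 1.25 ± 0.23, adjusted p = 2.56e-04). The adaptor gene Gab1 fell by 0.57, a call missed in KO2 alone (adjusted p = 0.0541), and Pdgfra fell by 1.06, a call missed in KO1 alone (-0.79, adjusted p = 0.218). Of 10 PI3K subunits 2 passed (20%, near the 19.2% of all genes): Pik3cd fell by 0.78 ± 0.16 and Pik3c3, the endosomal class III enzyme, fell by 0.52 ± 0.11. Among phosphatases and brakes, the AKT inhibitor gene Trib3 and the phosphatase scaffold gene Ppp2r1a fell by 0.81 and 0.24, and both missed in KO2 alone (adjusted p = 0.158 and 0.130).

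Marker sums also differed between WT and knockout GSCs. The 6 markers of fibroblasts and feeder cells summed to 81.7 and 84.0 RPM in WT and to 27.2 to 35.9 in knockout libraries. The 9 markers of undifferentiated spermatogonia summed to 573 and 584 RPM in WT and to 639 to 709 in knockout libraries, and the 5 of differentiating spermatogonia to 521 and 546 in WT and 389 to 486 in knockout libraries. The 8 Sertoli cell markers summed to 26.4 and 32.4 RPM in WT, 60.03 and 56.6 in KO1 and 38.3 and 42.2 in KO2, with Amh and Rhox8 at 0 in all of them. Ret and Gfra1 belong to the first of these spermatogonial lists, Kit to the second, Pdgfra to the fibroblast list and Klf4 to a pluripotency list. The part of these marker shifts in the pathway values was not tested. Tcl1 is also a lymphoid gene, and the 5 B cell markers summed to at most 0.997 RPM in any GSC library, with Cd79b, Ms4a1 and Pax5 at 0 in all of them. In vivo these markers summed to 4.27 and 2.47 RPM at P7 and to 23.6 to 37.7 RPM in fetal libraries, and their part in the Tcl1 levels there was not tested.

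**Figure D3:**
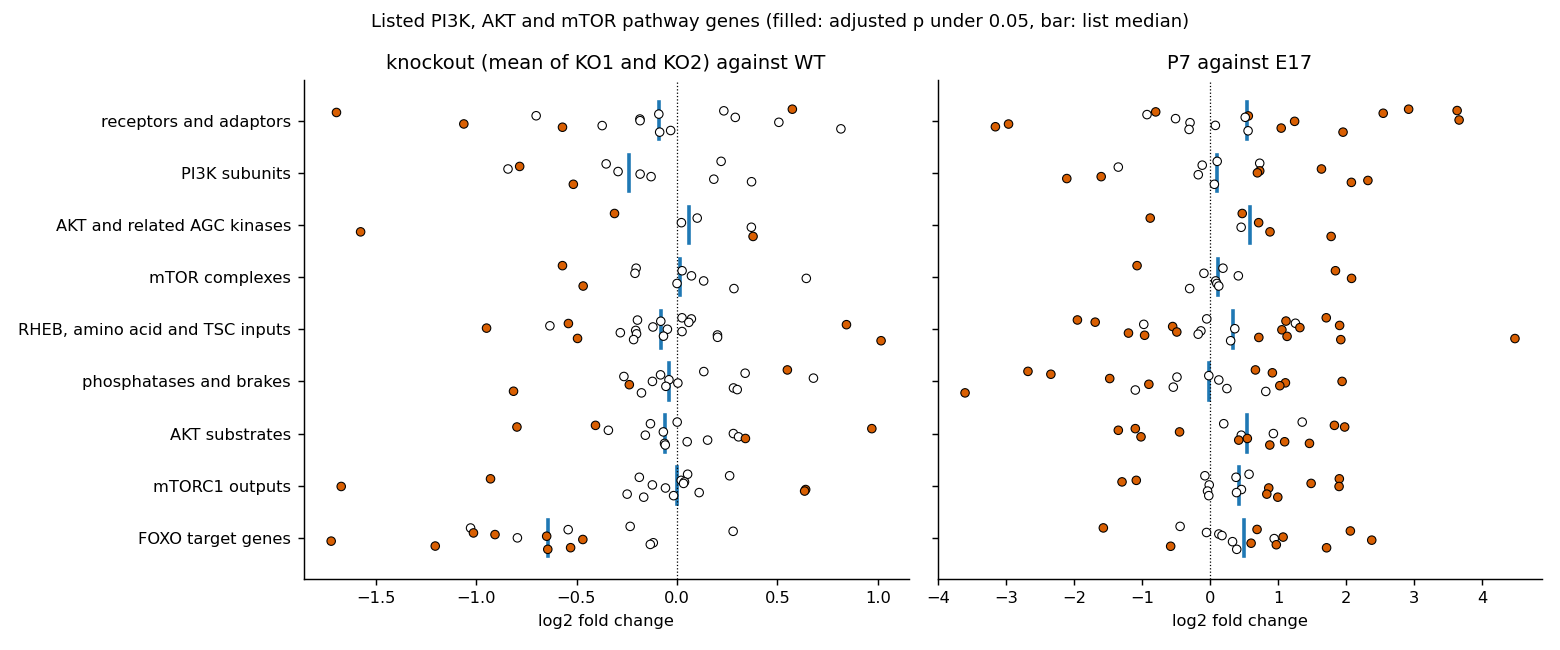
Log2 fold changes of the listed pathway genes by group, without the TCL1 family, for knockout GSCs against WT and for P7 against E17, filled where the adjusted p is under 0.05, with bars at the medians of each group. FOXO target genes have a median of -0.64 in the knockout comparison. With spike-in scaling 131 listed genes are lower at P7 than at E17 and none higher, where 14523 of all 14776 genes passed.

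From E17 to P7 most genes changed relative to the bulk, and so did most listed ones. Of 134 listed genes without Tcl1, 54 were higher and 26 lower, against 30.2% of all genes higher and 37.8% lower. The median over the 135 tested, which include Tcl1, was 0.41 against -0.13 for all genes. With library totals the split was 44 higher and 29 lower, where 9846 of all 14776 genes passed. Receptor genes of the niche signal rose steeply. Gfra1 went from 15.0 and 15.7 RPM at E17 to 186 and 158 at P7 (log2 fold change 3.63 ± 0.23, adjusted p = 8.66e-09), and Ret from 28.9 and 37.7 to 219 and 235 (2.92 ± 0.20, adjusted p = 1.38e-08). Igf1r rose by 2.54 ± 0.21, while the insulin receptor substrate genes Irs4 and Irs1 fell by 3.16 ± 0.33 and 2.97 ± 0.62 and Kit fell by 0.80 ± 0.22.

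Marker sums moved with this step too. The sum of the 9 markers of undifferentiated spermatogonia, which hold Gfra1 and Ret, was 1077 and 1208 RPM at P7 and 120 to 168 in fetal libraries. The 6 markers of fetal prospermatogonia summed to 2121 to 2715 RPM in fetal libraries and to 415 and 454 at P7. Endothelial markers summed to 71.6 to 140 RPM in fetal libraries and 17.6 and 18.4 at P7. The 8 Sertoli cell markers summed to 134 to 154 RPM in fetal libraries and to 64.8 and 96.7 at P7. Amh alone of them was at 0, at E16 and E17 as at P7. The part of these shifts in the values at P7 was not tested.

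The kinases and their lipid enzymes moved in both directions. Beside Akt1 and Akt2, Sgk1 rose by 0.88 ± 0.27 and Sgk3 by 1.78 ± 0.20. Of 13 PI3K subunits, 5 were higher and 2 lower (53.8% in all). Among all genes 67.9% passed, 30.2% higher and 37.8% lower. The median of the 13 was 0.10, against -0.13 for all genes. Pik3c2a (2.32 ± 0.36) and Pik3c2b (2.08 ± 0.47) led upward and the regulatory genes Pik3r6 (-2.11 ± 0.30) and Pik3r5 (-1.60 ± 0.63) downward. Of 10 genes of the mTOR complexes 3 passed (30%). Rictor, which defines mTOR complex 2, rose from 46.2 and 51.8 RPM to 172 and 144 (1.84 ± 0.19, adjusted p = 1.10e-06) and the inhibitor gene Deptor rose by 2.08 ± 0.51, while Mtor was the 1 that fell.

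Brakes on the pathway moved in both directions. Tsc1 went from 171 and 154 RPM at E17 to 37.5 and 37.7 at P7 (-1.95 ± 0.16, adjusted p = 8.11e-08) and its partner Tbc1d7 fell by 1.69 ± 0.16, whereas Tsc2, the catalytic part of the same complex, rose by 1.11 ± 0.16. Rheb, the GTPase that this complex switches off, rose by 1.71 ± 0.31. The imprinted adaptor gene Grb10 dropped from 314 and 287 RPM to 18.4 and 25.7 (-3.61 ± 0.18), and the lipid phosphatase genes Inpp5d and Inpp4a fell by 2.68 ± 0.52 and 2.34 ± 0.21. The catalytic PP2A gene Ppp2ca rose by 1.94 ± 0.19. Of 22 inputs tested, the largest rise was that of Sesn2, at 0 to 2.82 RPM in the libraries before P7 and at 15.8 and 19.5 at P7, which has the same limit of the gene list.

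Downstream, Foxo1 rose from 140 and 128 RPM to 434 and 417 (1.83 ± 0.15, adjusted p = 8.09e-08) and Foxo3 from 21.96 and 36.6 to 113 and 96.1 (1.98 ± 0.23). Foxo6 fell by 1.10 ± 0.31. Of 16 FOXO target genes, 7 were higher and 2 lower (56.2% in all). Among all genes 67.9% passed, 30.2% higher and 37.8% lower. The median of the 16 was 0.50, against -0.13 for all genes. Cited2 (2.38 ± 0.35), Gadd45a (2.06 ± 0.37) and Map1lc3b (1.71 ± 0.12) led upward, with Bcl6 (-1.57 ± 0.46) and Bnip3 (-0.58 ± 0.23) downward. Among mTORC1 outputs, Eif4ebp1 rose by 1.90 ± 0.17, Eef2k by 1.90 ± 0.28 and Eif4e, the cap-binding factor gene, by 1.48 ± 0.14, while the repressor genes Eif4ebp3 and Eif4ebp2 fell by 1.30 ± 0.14 and 1.09 ± 0.24.

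From E16 to E17 few listed genes passed. Of 134 genes without Tcl1, 5 were higher and 6 lower (8.21%), against 6.60% of all genes. That count rose without E16 replicate 1 and fell without either E17 replicate, and the count over all genes moved the same way. Sgk1 (1.395 ± 0.34), the lipid phosphatase gene Inppl1 (1.51 ± 0.33) and Irs4 (1.17 ± 0.29) rose, and the ribosomal protein gene Rps6 fell by 1.06 ± 0.16. The split was 16 higher and 1 lower with library totals, where 1542 of all 14776 genes passed. Relative to those totals, TMM set the E16 libraries at -0.11 and -0.23 and the E17 libraries at 0.16 and 0.16 (log2). Against WT GSCs, 33 of 136 genes were higher at P7 and 23 lower (41.2% in all, background 31.0%), and 44 were higher and 19 lower with library totals and 7 and 43 with spike-in scaling. Fetal cells had 40 higher and 60 lower than WT GSCs (73.5%, background 74.2%), or 122 and 2 with spike-in scaling. Of all 15827 genes, 14663 passed in fetal cells and 5618 at P7 with spike-in scaling, and 4958 at P7 with library totals.

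Neighbours of Tcl1 were read to see how its level compares with those of genes near it. Within 500 kb on either side the annotation places 29 genes, of which 16 reached 1 RPM in a group. The nearest with more than trace levels, the lncRNA gene Tunar, 113857 bases away, was at 4.90 and 4.73 RPM in WT and 7.29 to 13.0 in knockout libraries (log2 fold change 0.99 ± 0.34, adjusted p = 0.0301), and it passed in neither line alone (0.0906 in KO1 and 0.0560 in KO2). It fell by 1.04 ± 0.31 from E17 to P7 (adjusted p = 0.00815), the step at which Tcl1 was higher. On the other side, Glrx5, a gene of iron-sulphur cluster assembly, stood in the knockout comparison at 0.0053 ± 0.14 and rose by 1.56 ± 0.27 at P7 (adjusted p = 1.24e-04).

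Farther out, Dicer1, the ribonuclease of small RNA processing, fell by 0.29 ± 0.10 in knockout GSCs (adjusted p = 0.0276; 0.131 in KO2 alone) and rose by 1.24 ± 0.18 from E17 to P7. Clmn fell by 1.38 ± 0.46 in knockout GSCs (adjusted p = 0.0213; 0.130 in KO1 alone), from 6.81 and 6.48 RPM to between 0.883 and 5.24. Atg2b, Gskip, Snhg10 and D430019H16Rik did not pass in the knockout comparison, with adjusted p from 0.707 to 0.993. Gskip and D430019H16Rik rose from E17 to P7 by 1.502 and 1.62, and Atg2b and Ak7 fell by 0.66 and 1.46. Syne3, Bdkrb2 and Ak7 were too low to be tested in GSCs. The remaining 5, Gm46375, Gm46374, Gm40565, Tcl1b2 and Tcl1b5, stayed at or below 4.19 RPM in every library that lists them.

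**Figure D4:**
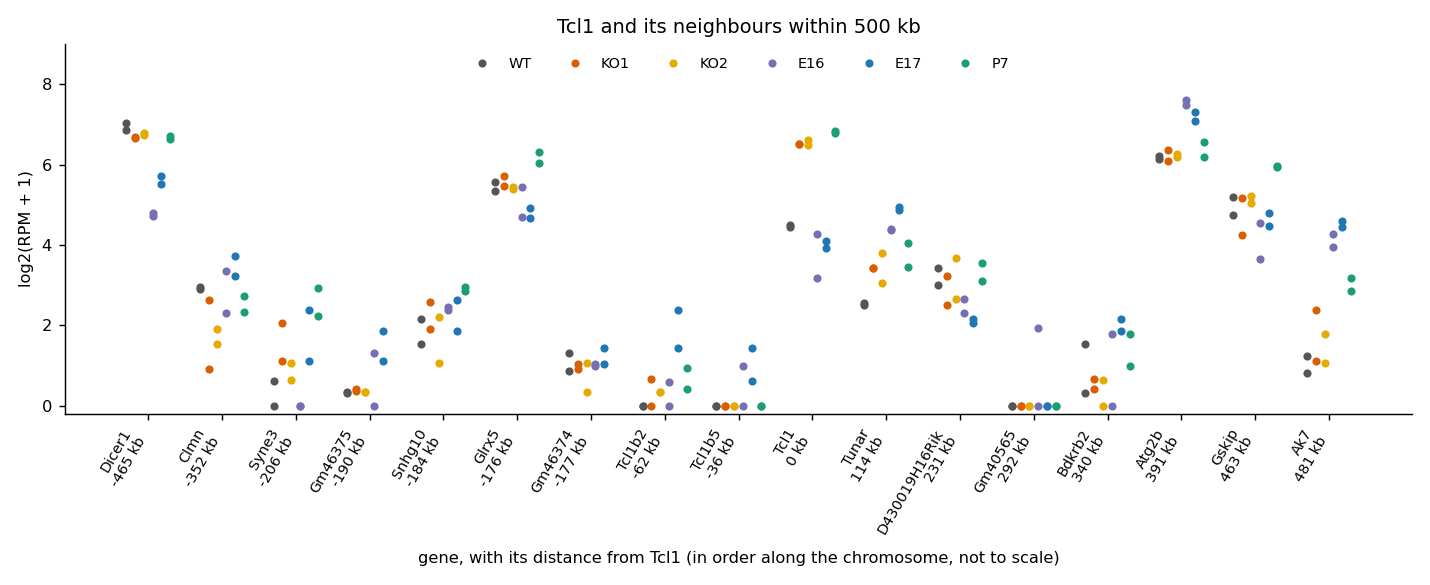
Log2(RPM + 1) of Tcl1 and the 16 neighbours that reach 1 RPM, 1 point per library, in order along the chromosome and not to scale. Tcl1 is at 89.1 RPM or more in knockout and P7 libraries and at 21.5 RPM or less in the others, the values for which it was chosen, and Tunar is at 4.90 and 4.73 RPM in WT and 7.29 to 13.0 in knockout libraries.

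Tcl1 was compared with 9475 genes that had a group mean of at least 20 RPM, leaving out Gm-number, Rik and LOC symbols. Those whose pattern is most like that of Tcl1 were found by Pearson's r of log2(RPM + 1) over the 12 libraries. They were Kdm7a, a histone demethylase gene (r = 0.957), Sptbn1, a spectrin gene (0.957), Podxl, a surface sialomucin gene (0.953), Egr2, a transcription factor gene (0.953), and E2f3, a cell cycle transcription factor gene (0.949). Egr2 was at 13.1 and 12.2 RPM in WT, 27.95 to 55.9 in knockout libraries, 2.11 to 7.33 in fetal libraries and 106 and 101 at P7. Kdm7a was at 15.8 and 18.4 RPM in WT, 29.4 to 33.6 in knockout libraries, 11.9 to 13.7 in fetal libraries and 41.4 and 41.7 at P7. The 12 points share culture, age and gene list within groups, so r is a description. On the same scale r with Tcl1 was 0.796 for Pdpk1, 0.555 for Akt1, -0.159 for Pik3ca, -0.713 for Akt2 and -0.817 for Mtor. Pik3cb did not reach a group mean of 20 RPM and was not compared.

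**Figure D5:**
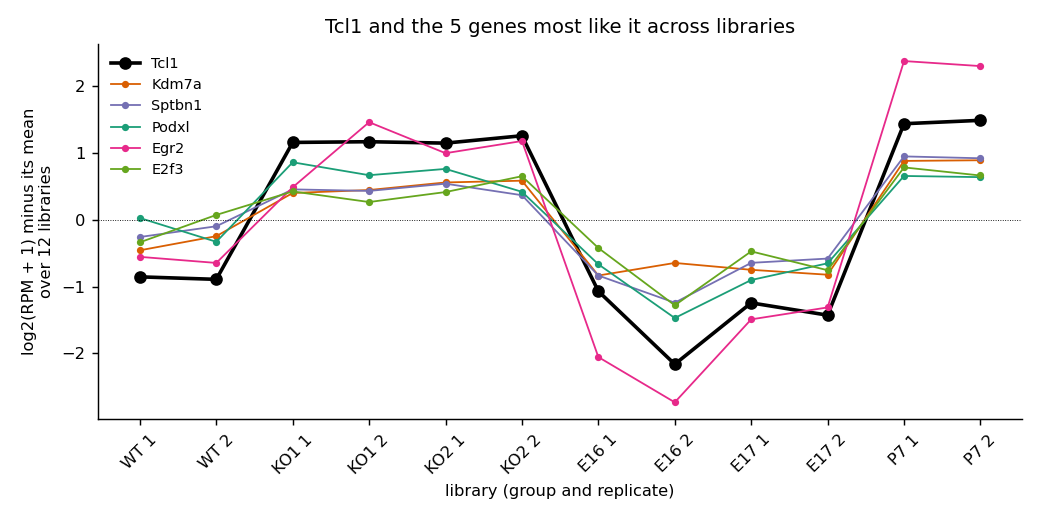
Log2(RPM + 1) of Tcl1 and the 5 genes with the highest Pearson r to it among those compared. Each is shown minus its mean over the 12 libraries, joined by lines only to guide the eye. All 6 genes are higher in knockout GSCs and at P7 than in fetal libraries, and Tcl1 has a wider step between WT and knockout than the other 5.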

How the data were processed

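The submitters' processing notes name the build GRCm38.p6 and the tools TopHat2 2.1.1, HTSeq 0.9.1, Salmon 1.4.0 and cutadapt 1.18, without their roles. Whether counting used strand is not given in the sources used here. For each library the authors deposited 1 table with whole read counts per gene, replicates not pooled, and these counts were used throughout. Blank cells were treated as missing. Replicate numbers of GSC WT differ between titles and file names, and titles were used. RPM were computed over non-mitochondrial gene counts. Total counts ran from 1938644 to 4596607 per library.

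Tests used edgeR 4.0.16 (R 4.3.3; quasi-likelihood, TMM, filterByExpr by group, Benjamini-Hochberg over all genes, threshold 0.05), with 1 fit of the 6 GSC libraries, 1 of the 6 in vivo libraries and 1 of all 12, the last 2 over 31675 shared genes without blank cells. The script was tested on simulated data. Alternatives were DESeq2 1.42.0, spike-in totals, no low-count filter, the replicate number as a block, all 12 libraries together, each library left out and, added after seeing the data, library totals. The members, the gene lists and the tests were chosen with earlier results of these data known. Named genes were the 7 members, up to 3 genes per direction, list and comparison by size of change, neighbours within 500 kb that reach 1 RPM, and the 5 genes most correlated with Tcl1. Genes were placed with RefSeq and GENCODE annotation of the same build. Results for some listed genes are not reported here.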

Additional observations from a re-analysis of the deposited data

How the results depend on the processing

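The replicate numbers shared by the groups did not pair the libraries: the correlation of deviations between same-numbered libraries was between -0.0139 and 0.0587 over the 6 pairs of groups. With the number as a replicate block, 40 listed genes passed in the knockout comparison against 35 without it, Pdpk1 passed there (adjusted p = 0.0365, edgeR) and 17 passed from E16 to E17 against 11; no other call of the 6 tested members changed under the block. DESeq2 gave 20 listed genes for the knockout comparison and 18 for KO1 (main value 32), and all 12 libraries in 1 fit gave 22, 17 and, for E17 against E16, 21. For these comparisons the count over all genes moved the same way under the block, with DESeq2 and in the joint fit. These shifts are thus not particular to the listed genes. Library totals gave 17 for E17 against E16, where 1542 of all 14776 genes passed. Spike-in totals gave 131 there and 131 for P7 against E17, where 14508 and 14523 of all genes passed. Leaving out 1 library gave 20 to 35 listed genes for KO1 against WT (20 without WT replicate 1 or either KO1 library), 1 to 3 for KO1 against KO2 (1 without KO1 replicate 1), and 1 to 43 for E17 against E16 (43 without E16 replicate 1, 1 without E17 replicate 1, 2 without E17 replicate 2). In the fits without 1 library named in brackets, the count over all genes moved the same way as that of listed genes. Log2 fold changes turned sign as follows. With spike-in totals, Akt2 in KO1 was -0.0579; between KO1 and KO2 Pik3cb was -0.0821 and Mtor -0.12; from E16 to E17 Tcl1 was 2.88, Akt2 2.69, Pik3ca 2.95, Pik3cb 2.78, Pdpk1 2.93 and Mtor 2.42; from E17 to P7 Tcl1 was -1.65, Akt1 -4.22, Pik3ca -4.58, Pik3cb -3.90 and Pdpk1 -4.24; in fetal cells against WT Tcl1 was 1.90, Akt1 1.56, Pik3cb 2.52 and Pdpk1 2.15. With library totals, from E16 to E17 Tcl1 was 0.25, Pik3ca 0.29, Pik3cb 0.10 and Pdpk1 0.24; Pik3ca was -0.0533 from E17 to P7, Pdpk1 0.0677 and Mtor 0.0943 at P7 against WT, and Pik3cb 0.0468 in fetal cells. DESeq2 gave Pik3cb 0.11 in fetal cells. With 1 library left out, values ran for Akt2 in KO1 from -0.0733 to 0.14 and for Pik3ca in KO2 from -0.0128 to 0.23. Between KO1 and KO2 they ran for Pik3cb from -0.30 to 0.37, Pdpk1 from -0.11 to 0.0902, Mtor from -0.0309 to 0.12 and Tcl1 from -0.0928 to 0.0154. From E16 to E17 they ran for Tcl1 from -0.56 to 0.50, Pik3ca from -0.14 to 0.0474, Pik3cb from -0.69 to 0.0902 and Pdpk1 from -0.21 to 0.0290. At P7 against WT they ran for Mtor from -0.12 to 0.0345 and Pdpk1 from -0.20 to 0.0749, and in fetal cells for Pik3cb from -0.33 to 0.06. The cause of these changes was not tested. Spike-in scaling moved the median gene by -0.55 at P7 and by 2.63 in fetal cells against WT, by -0.10 in KO1 against WT and by -0.16 between KO1 and KO2.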
